A study of Homo sapiens with 9 samples.

Results

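Anterior visceral endoderm (AVE)-like cells were the cells of the hypoblast-like lineage of human extra-embryoids (hEEs) that carried both *CER1* and *LEFTY* transcripts. Members were chosen by unique molecular identifiers (UMIs), each of which stands for 1 captured transcript. They had at least 3 UMIs of *FN1*, a fibronectin gene that marks the hypoblast-like side, none of *SOX2*, and at most 5 of *POU5F1*, the last 2 being pluripotency factors. They also had at least 2 UMIs of *CER1* and at least 3 of *LEFTY1* and *LEFTY2* together. Cells with more than 1 UMI of *NPPB*, or more than 1 of *GYPE*, *GYPB* and *RIPPLY1* together (the *GYP* cut), were left out. A total of 322 cells met this rule among the 19248 that passed the filters on depth and mitochondrial share, out of 22426 deposited. Of these, 292 came from day 4 (D4) and 30 from day 6 (D6).

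hEEs are aggregates of human pluripotent stem cells in which an outer hypoblast-like layer comes to surround an inner epiblast-like compartment. They were made here from ESI017, an established human embryonic stem cell line, with wild-type genotype and no treatment on either day, and the question put to the transcriptomes was which lineages emerge between D4 and D6. Each day was 1 library of the 10x 3′ assay, which held dissociated structures pooled from wells and selected by eye for an inner and an outer compartment. The libraries held 10943 cells and 151712246 UMIs at D4, and 11483 cells and 150320228 UMIs at D6, with 40 cell barcodes in common, of which 1 belonged to an AVE-like cell of D4. With 1 library per day there was no replicate, so no test was made and no p-value is given. Intervals in brackets are 95% intervals of counting error only, and day and library cannot be told apart.

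The AVE is a signalling centre of the extra-embryonic endoderm that is best known from the mouse embryo, where it lies next to the epiblast and moves to the side that will form the head. It secretes CER1 and LEFTY1, which block NODAL, together with inhibitors of WNT and BMP signals, and so keeps the neighbouring epiblast from forming the primitive streak. NODAL itself is a TGFβ-family ligand that acts through SMAD2 and SMAD3 with the DNA-binding partner FOXH1, and *CER1*, *LEFTY1*, *LEFTY2* and *GSC* are among the genes known to respond to it.

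The promoters of 3 genes are shown because the genes were chosen by the rule (*CER1*) or were higher in AVE-like cells on both days (*GSC*, *MIXL1*), and because the letters known to be bound by NODAL effectors can be seen in them. Each sequence is the 250 bases before the RefSeq start, read 5′ to 3′ on the gene's strand of GRCh38.p14, at chr9:14722734-14722983 (minus strand) for *CER1*, chr14:94770114-94770363 (minus strand) for *GSC* and chr1:226223414-226223663 (plus strand) for *MIXL1*. Capitals mark AATNCACA, the letters of a FOXH1 motif, CAGAC, those of a SMAD motif, and TAATTA, those of a homeodomain motif, on either strand.
CER1: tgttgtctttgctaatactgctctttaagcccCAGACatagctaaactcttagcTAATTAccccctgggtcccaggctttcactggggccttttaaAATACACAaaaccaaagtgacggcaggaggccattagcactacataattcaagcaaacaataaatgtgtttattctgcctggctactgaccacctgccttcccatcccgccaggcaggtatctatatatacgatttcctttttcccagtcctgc
GSC: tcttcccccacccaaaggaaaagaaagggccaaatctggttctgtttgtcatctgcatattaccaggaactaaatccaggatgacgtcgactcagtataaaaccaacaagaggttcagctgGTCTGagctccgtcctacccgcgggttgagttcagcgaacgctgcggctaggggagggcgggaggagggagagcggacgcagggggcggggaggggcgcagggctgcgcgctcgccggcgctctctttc
MIXL1: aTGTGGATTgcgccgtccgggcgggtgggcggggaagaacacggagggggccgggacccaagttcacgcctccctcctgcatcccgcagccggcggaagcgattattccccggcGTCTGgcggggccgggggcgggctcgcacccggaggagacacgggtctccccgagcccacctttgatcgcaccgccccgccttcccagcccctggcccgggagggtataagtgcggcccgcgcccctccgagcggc
In *CER1*, CAGAC lay 218 bases, TAATTA 196 bases and AATACACA 154 bases before the start. *MIXL1* held TGTGGATT, a reverse-strand match to AATNCACA, 249 bases before the start and GTCTG 136 bases before it, and *GSC* held GTCTG at 129 bases. Among 35116 promoters of this length, 2.89% held AATNCACA, 38.0% CAGAC and 4.35% TAATTA, so that CAGAC in particular is frequent. Promoters of 9 genes were searched, namely *CER1*, *GSC*, *NODAL*, *MIXL1*, *CXCR4*, *SHISA2*, *OTX2*, *FZD5* and *HHEX*, and none of them held TAATCC, which is in 5.62% of all promoters, or TGTTTAC, which is in 2.98%. GGCGCC, the letters of a BMP-SMAD motif, was in *FZD5*, *SHISA2* and *HHEX* and in 16.4% of all promoters, and AGATAA, those of a GATA motif, was in *OTX2* and in 9.17%. AATNCACA was found in 4 of the 9 and CAGAC in 7 of the 9, where a gene counted if any promoter listed for it matched. The percentages are shares of single promoters, so the counts and the percentages are not the same measure. These matches describe letters and not binding.

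AVE-like cells made up 3.19% [2.84, 3.57] of the kept cells at D4 and 0.297% [0.201, 0.424] at D6. These values moved with the cuts. They were 4.85% and 0.574% with 1 or more *CER1* UMIs and 4.70% and 0.683% without the *NPPB* and *GYP* cuts. With 10 or more *FN1* UMIs they were 0.994% and 0.109%. Relative to all cells that passed the *FN1*, *SOX2* and *POU5F1* cuts, the shares were 7.19% [6.41, 8.03] of 4061 cells and 0.841% [0.568, 1.20] of 3567. The share was thus lower in the D6 library on either denominator, a description, since measured values chose the cells. Members had a median of 11440 UMIs and 3726 genes per cell at D4 and of 14150.5 UMIs and 4047 genes at D6. Comparison cells were those that met the same *FN1*, *SOX2* and *POU5F1* cuts on the same day and had no UMI of *CER1* or *LEFTY1*. They numbered 2665 at D4, with a median of 10713 UMIs, and 2438 at D6, with 10499. Median mitochondrial shares were 3.74% and 3.59% in AVE-like and comparison cells of D4, and 2.55% and 1.90% at D6. A doublet caller marked 4 AVE-like cells of D4 (1.37%) and none of D6. It marked 7 comparison cells of D4 (0.263%) and 9 of D6 (0.369%).

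Cells lay close to the cuts on both sides. At D4, 71 of the 292 members stood exactly at a cut, 62 of them with 2 UMIs of *CER1* and 17 with 3 of *LEFTY1* and *LEFTY2*, while 152 cells were left out with 1 UMI of *CER1* and 21 with 2 of the *LEFTY* genes. At D6, 9 of 30 stood at a cut and 28 cells were left out with 1 UMI of *CER1*. Members were thus cut from a range of counts, as the plot of *CER1* against *LEFTY* UMIs per cell shows, and whether they form a group of their own was not tested.

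**Figure D1:**
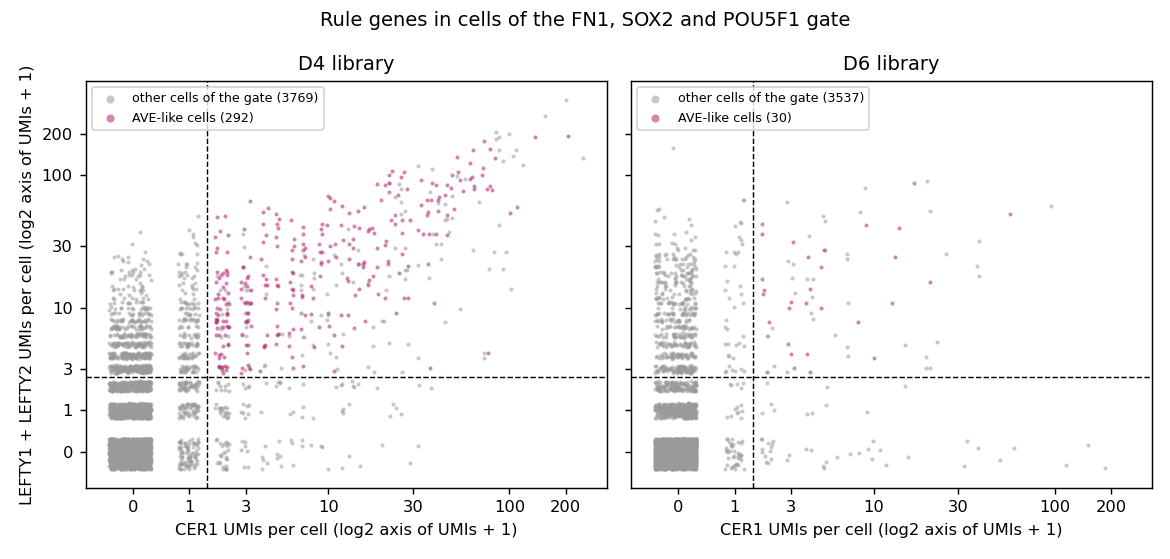
UMIs per cell of *LEFTY1* and *LEFTY2* together (vertical axis) against *CER1* (horizontal axis), both on log2 axes of UMIs plus 1, for single cells that passed the *FN1*, *SOX2* and *POU5F1* cuts at D4 and D6, with dashed lines at the 2 cuts. The 292 AVE-like cells of D4 form the upper right part of a spread that begins at 0, and the 30 of D6 are scattered over the same area.

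The genes of the rule are given as a description. *CER1* (ENSG00000147869, chr9:14717326-14722733) had a median of 7 UMIs per member at D4, with a highest value of 207, and a median of 4 and a highest value of 57 at D6. Summed over members and scaled to a total of 1000000 UMIs (CPM), it stood at 1354.1 CPM at D4 and 508.1 at D6. *LEFTY1* (ENSG00000243709, chr1:225886282-225889146) was at 1004.9 and 1100.6 CPM and *LEFTY2* (ENSG00000143768, chr1:225936603-225941220) at 1653.5 and 239.6 CPM. Per cell, *LEFTY2* UMIs outnumbered *LEFTY1* UMIs in 210 of 292 members at D4, and *LEFTY1* outnumbered *LEFTY2* in 27 of 30 at D6, where 1 cell held 43.5% of all *LEFTY2* UMIs. In cells with an epiblast-like profile (at least 1 UMI of *SOX2*, 6 of *POU5F1* and at most 2 of *FN1*), *LEFTY1* had more UMIs than *LEFTY2* in both libraries, with 6047 and 2186 at D4 and 731 and 212 at D6. *LEFTY1* and *LEFTY2* are neighbouring copies with nearly the same sequence, and 3′ reads may have been split between them, so values of each are uncertain. Comparison cells, which were not selected on *LEFTY2*, had 94.5 CPM of it at D4 and 1.44 CPM at D6.

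The 2 AVE markers that the rule did not use were both higher in AVE-like cells on both days. The authors had already reported both genes for the AVE-like cells of these data, so this is a description and not an independent check. *GSC* (ENSG00000133937, chr14:94768223-94770113) encodes goosecoid, a homeodomain repressor of the AVE and the organizer. Its level at D4 was 112.2 CPM in AVE-like cells and 5.68 in comparison cells, a log2 ratio of 4.30 [4.04, 4.57]. At D6 it was 162.0 and 19.5 CPM, a log2 ratio of 3.06 [2.68, 3.41]. A *GSC* UMI was found in 145 of 292 members at D4, or 49.7% [43.8, 55.5], in 5.78% of comparison cells and in 0.543% of 3680 epiblast-like cells (median 15220 UMIs). At D6 it was found in 26 of 30 members, 14.2% of comparison cells and 0.438% of 5022 epiblast-like cells. After thinning of each cell to the lowest depth kept, the D4 shares were 27.1% [22.0, 32.5] and 2.03% [1.53, 2.64] in AVE-like and comparison cells. At D6, where members were deeper than comparison cells, a UMI was left in 9 of 30 members (95% interval 14.7% to 49.4%, against 86.7% before thinning) and in 5.50% [4.63, 6.48] of comparison cells (14.2% before). The shares thus also differed at equal depth on both days.

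*FZD5* (ENSG00000163251, chr2:207762598-207769906) encodes a frizzled receptor for WNT ligands. It stood at 991.5 CPM in AVE-like and 182.9 in comparison cells at D4, a log2 ratio of 2.44 [2.38, 2.50], and was detected in 283 of 292 members. At D6 the levels were 1187.1 and 472.5 CPM, a log2 ratio of 1.33 [1.20, 1.45], with a UMI in all 30 members. At D4 a *FZD5* UMI was also found in 62.3% of comparison cells and 42.3% of the deeper epiblast-like cells. After thinning, the shares were 85.6% in members, 35.2% in comparison cells and 12.1% in epiblast-like cells, and the part of free RNA in the latter shares was not tested. Comparison cells of D6 had more of both markers than those of D4, by 1.78 on the log2 scale for *GSC* and 1.37 for *FZD5*, whereas AVE-like cells of the 2 libraries differed by 0.54 and 0.26. Against all remaining cells of the same cuts, many of which carry *CER1* or *LEFTY1*, the log2 ratio of *FZD5* at D6 was 0.95.

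Past the fold is used below for a log2 ratio of at least 1 or at most −1, among genes outside the rule with at least 50 UMIs over both groups. At D4, 306 of 13102 compared genes (2.34%) were higher in AVE-like cells by this measure and 320 (2.44%) were lower, 4.78% in all. At D6, 744 of 12744 (5.84%) were higher and 1211 (9.50%) lower, 15.3% in all. Most genes past the fold at D6 had few UMIs in the 30 cells. Where at least 10 UMIs were expected in each group, 193 genes were higher and 188 lower of 11718 at D4, and 53 were higher and 175 lower of 5870 at D6. The median log2 ratio of all compared genes was −0.01 at D4 and 0.01 at D6.

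A list of 12 AVE genes, written with earlier results of these data known, held 10 genes that could be compared on each day. At D4, 6 of the 10 were higher past the fold, against 2.34% of all genes, 1 was lower (*SFRP5*), against 2.44%, and the list's median log2 ratio was 1.06. At D6, 6 of the 10 were higher, against 5.84%, with a median of 1.02, and *SFRP5*, which had no UMI in members, was the only one with a fitted ratio of −1 or less. The same 6 genes, *GSC*, *FZD5*, *SHISA2*, *OTX2*, *LHX1* and *HHEX*, made up both counts of higher genes. *OTX2*, a homeodomain factor of the anterior endoderm and later of the forebrain, was at 185.5 against 59.0 CPM at D4, a log2 ratio of 1.65 [1.52, 1.78], and at 142.0 against 70.8 CPM at D6, a ratio of 1.02 [0.62, 1.36]. *LHX1*, a LIM homeodomain factor needed for head formation in the mouse, had log2 ratios of 1.10 [0.95, 1.25] and 1.14 [0.84, 1.40], and *HHEX*, an early marker of the mouse AVE, had 1.01 [0.86, 1.16] and 1.03 [0.64, 1.38].

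*SHISA2* encodes a protein that retains WNT and FGF receptors inside the cell. It was at 124.2 CPM in AVE-like cells of D4 and 25.9 in comparison cells, a log2 ratio of 2.26 [2.09, 2.43]. At D6 it was at 35.5 and 7.42 CPM, but its 16 UMIs came from 7 of 30 members and 7 of them from 1 cell. The other AVE genes that could be compared were not higher past the fold. *EOMES*, a T-box factor that activates the AVE program in the mouse, had a log2 ratio of 0.48 on both days. *FOXA2*, a forkhead factor of all endoderm, had 0.04 [−0.10, 0.18] at D4 and 0.55 [0.24, 0.84] at D6. *DKK1*, which blocks the WNT co-receptor, had 0.59 and 0.65 and stood at 25.5 and 66.6 CPM in AVE-like cells. *SFRP5*, a secreted WNT binder of the mouse AVE, was lower past the fold at D4 (−1.92 [−5.30, −0.33]), with 2 UMIs in all members. At D6 it had none, and its 5.95 CPM in comparison cells was under the 6.66 CPM that 3 UMIs in members stand for, so no direction is read for it there. The 6 genes did not all hold under every choice. *HHEX* was at 0.98 at D4 when comparison cells were also cut on *NPPB*. With 1 or more *CER1* UMIs, 4 of 11 AVE genes were higher past the fold at D4, beside 200 of 13226 genes. At D6, 4 of 10 were then higher, beside 416 of 12766. With 5 or more, 7 of 10 were higher at D6, beside 1585 of 12726. Against all other cells of the same cuts, 6 of 12 were higher at D4, beside 288 of 13787 genes, and 3 of 11 at D6, beside 1035 of 13570. At D6, 3 of the 10 AVE genes were higher past the fold when the cell with the most UMIs of each gene was left out of the members, which lowers every ratio by construction. There 284 of 12744 genes were higher, with *LHX1* at 0.76, *HHEX* at 0.92 and *OTX2* at 0.88.

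**Figure D2:**
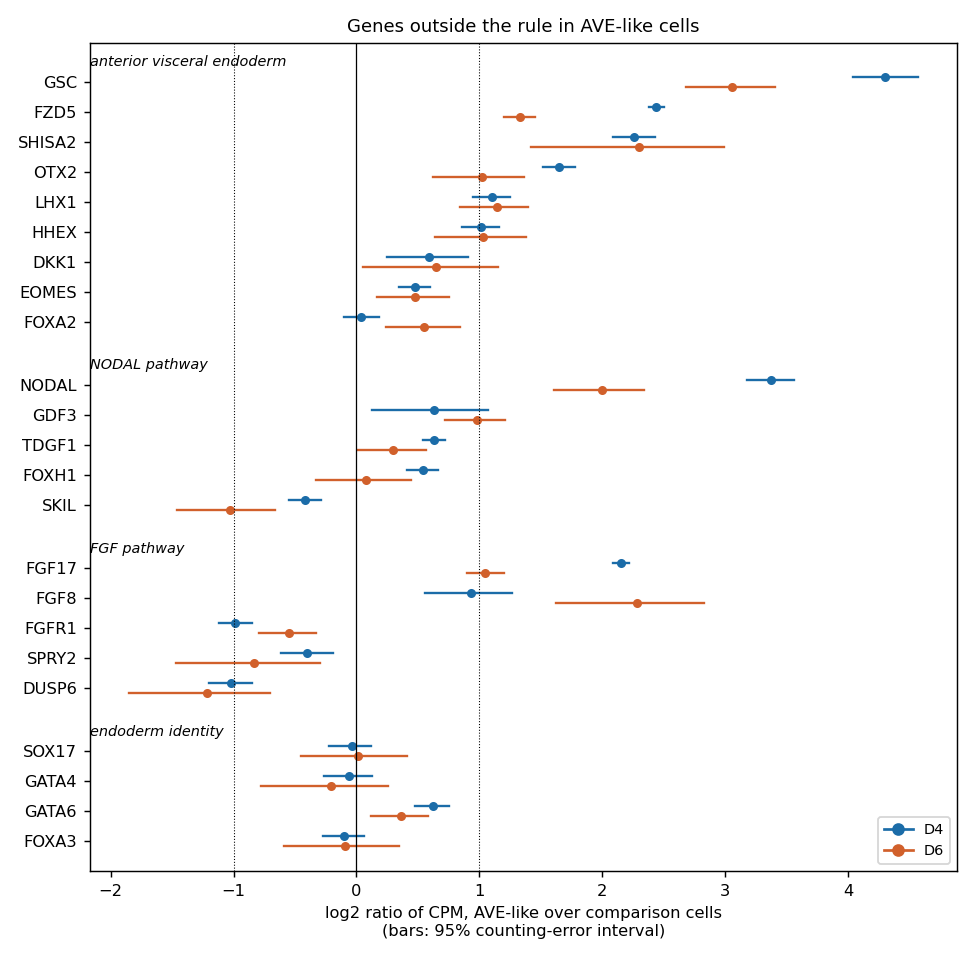
Log2 ratio of CPM in AVE-like over comparison cells (horizontal axis) for AVE genes, NODAL and FGF pathway genes and endoderm identity genes, at D4 and D6, with bars for the 95% interval of counting error. At D4 *GSC* (4.30) and *NODAL* (3.37) stand farthest to the right, while on both days *SOX17* (−0.04 and 0.01) lies near 0.

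*NODAL* (ENSG00000156574, chr10:70431936-70447951), the ligand that CER1 and the LEFTY proteins block, was itself higher in AVE-like cells. It was at 144.9 CPM against 14.0 at D4, a log2 ratio of 3.37 [3.18, 3.56], and at 150.9 against 38.1 CPM at D6, a ratio of 2.00 [1.61, 2.34]. A *NODAL* UMI was present in 62.7% of members and 10.9% of comparison cells at D4, and in 6.39% of the deeper epiblast-like cells. At D4, 113 members had UMIs of both *GSC* and *NODAL*, 32 of *GSC* alone, 70 of *NODAL* alone and 77 of neither.

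The rest of the NODAL pathway was mostly near comparison levels. Of 16 compared genes in a list of ligands, receptors and regulators, 1 was higher past the fold at D4, *NODAL* itself, against 2.34% of all genes, and none was lower, against 2.44%. At D6, 2 were higher (*NODAL*, *CFC1*), against 5.84%, and *SKIL* was lower, against 9.50%. *PCSK6* had no UMI in members there and 3.03 CPM in comparison cells, under the level of 3 UMIs, and no direction is read for it. The co-receptor *TDGF1* was at 318.7 against 206.1 CPM at D4 (log2 ratio 0.63 [0.54, 0.72]) and *FOXH1* at 167.6 against 115.4 (0.54 [0.41, 0.66]). At D6 their log2 ratios were 0.30 and 0.08. At D4 the ligand was thus higher while no receptor or SMAD gene was past the fold.

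Of the FGF ligands, receptors and feedback genes, *FGF17* was higher past the fold on both days, but more of the list lay below 0 than above. *FGF17*, which belongs with *FGF8* to a subfamily of secreted FGFs, was at 844.4 CPM in AVE-like cells and 189.6 in comparison cells at D4, a log2 ratio of 2.15 [2.09, 2.22]. At D6 it was at 845.4 and 407.7 CPM, a ratio of 1.05 [0.90, 1.20], or 0.93 without the cell that had most of it. *FGF8* had 0.93 [0.56, 1.27] at D4 and 2.28 [1.62, 2.83] at D6, where 11 of its 26 UMIs came from 1 cell. On the receiving side, *DUSP6*, a phosphatase induced by FGF signalling, was at 80.9 against 163.9 CPM at D4 (−1.02 [−1.20, −0.85]) and had −1.22 [−1.85, −0.70] at D6, and *FGFR1* had −0.99 and −0.55. Of 14 compared FGF genes at D4, 1 was higher past the fold, against 2.34% of all genes, and 2 lower, against 2.44%, with 10 below 0 and a median of −0.41. At D6, 2 were higher, against 5.84%, and 4 lower, against 9.50%, with 8 below 0 and a median of −0.44. Apart from FGFs, *CYP26A1*, which breaks down retinoic acid, had a log2 ratio of 1.68 at D4. By *CER1* count, with the *NPPB* and *GYP* cuts applied, it was at 342.8 CPM with no UMI and 719.4 with 2 to 4 at D4. At D6 these levels were 830.4 and 1041.5 CPM, a smaller difference.

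In AVE-like cells, most listed BMP targets had log2 ratios below 0 on both days. Counts past the fold depended on the cuts. In a list of 8 BMP targets, 6 were lower past the fold at D4 and none was higher, against 2.44% of all genes that were lower, and all 8 had a log2 ratio below 0, with a median of −1.13. Summed over the list, the level was 1526.2 CPM in AVE-like and 3352.8 in comparison cells. *ID1* and *ID3* encode inhibitors of basic helix-loop-helix factors and are direct targets of the BMP SMADs. *ID1* was at 782.2 against 1691.7 CPM at D4 (−1.11 [−1.17, −1.06]), and *ID3* at 441.8 against 1106.3 CPM (−1.32 [−1.40, −1.25]). *ID4* had −1.18 and *MSX2*, a homeobox target of BMP, had −1.08. At D6, *ID3* was at 332.8 against 821.8 CPM (−1.30 [−1.55, −1.07]), *ID2* at −2.00 [−2.97, −1.28] and *ID1* at 796.6 against 1502.5 CPM (−0.91 [−1.07, −0.77]). There 2 of 7 were lower past the fold, against 9.50% of all genes, 1 was above 0 and the median was −0.91. If cells with 1 UMI of *CER1* were also counted as members, 1 of the 8 was lower past the fold at D4. The median was −0.83, and 195 of 13226 genes were lower. At D6, 2 of 7 were then lower, beside 886 of 12766 genes. With 5 or more *CER1* UMIs, 6 of 8 were lower at D4, beside 512 of 13022 genes. At D6, 6 of 7 were then lower and 1 higher, with a median of −1.88, beside 1294 lower and 1585 higher of 12726. With the cell with most UMIs of each gene left out, which lowers ratios by construction, 6 of 7 were lower at D6, beside 2701 of 12744.

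*BAMBI* and *SMAD6*, inhibitors of the pathway that are themselves induced by BMP, were also lower past the fold on both days. *BAMBI*, a decoy receptor, was at 78.3 against 167.8 CPM at D4 (−1.10 [−1.28, −0.93]) and 84.3 against 249.8 at D6 (−1.55 [−2.07, −1.11]). *SMAD6*, an inhibitory SMAD, had −1.13 [−1.43, −0.85] and −1.74 [−3.04, −0.84]. Of 9 compared BMP antagonists outside the rule, these were the 2 lower past the fold at D4, against 2.44% of all genes. None was higher, 4 were above 0 and the median was −0.18. With 1 or more *CER1* UMIs, none of 10 was lower at D4, beside 195 of 13226 genes, and the median was −0.04. With 1 or more *LEFTY* UMIs, 1 of 10 was higher, beside 279 of 13141 genes, and none lower, beside 278. At D6, 3 of 8 were lower, the third being *FST*, against 9.50%, and none was higher. Without the *NPPB* and *GYP* cuts, 1 of 9 was higher and 1 lower at D6, with a median of −0.08 in place of −0.81. Of all 12783 genes, 434 were then higher and 881 lower. In thinned cells 1 of 8 was higher and 2 lower, with a median of −0.11, beside 1438 higher and 1215 lower of 10527 genes. The secreted antagonists *NOG* and *CHRD* had 10 UMIs and 1 UMI in all D4 members, and the 7 *NOG* UMIs of D6 came from 1 cell. *FST*, whose product binds activins, was at 350.6 against 316.3 CPM at D4 (0.15) and 275.2 against 625.4 at D6 (−1.18 [−1.45, −0.93]). Among ligands and receptors, *BMP2* was at 244.5 and 219.1 CPM at D4 (0.16 [0.06, 0.26]) and 77.7 and 198.4 at D6 (−1.33 [−1.88, −0.88]), and none was higher past the fold on either day. Of 9 compared at D4, 2 were lower (*BMP5*, *BMP6*), against 2.44% of all genes, with a median of 0.12, and of 8 at D6, 4 were lower (*BMP2*, *BMP5*, *BMP6*, *BMP7*), against 9.50%, with a median of −0.72. *BMP6* rests on 4 UMIs in members at D4 and 2 at D6.

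**Figure D3:**
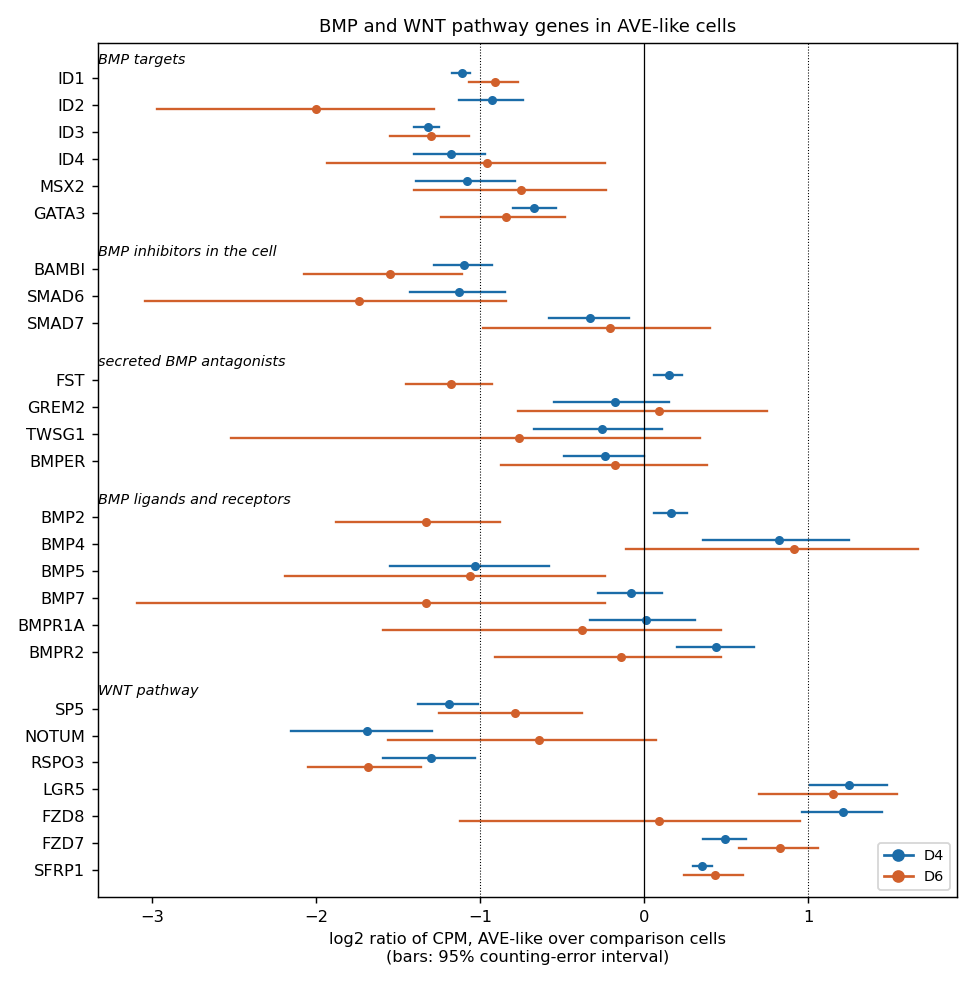
Log2 ratio of CPM in AVE-like over comparison cells (horizontal axis) for BMP targets, inhibitors, antagonists and ligands and for WNT pathway genes, at D4 and D6, with bars for the 95% interval of counting error. *ID3* (−1.32 at D4, −1.30 at D6), *BAMBI* (−1.10 and −1.55) and *RSPO3* (−1.30 and −1.68) lie left of 0 on both days.

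WNT genes differed in both directions. Of 12 compared WNT antagonists, 2 were higher past the fold at D4 (*SHISA2*, *APCDD1*), against 2.34% of all genes, and 4 lower (*NOTUM*, *SFRP5*, *SHISA3*, *DRAXIN*), against 2.44%, with a median of 0.08. At D6, 1 of 11 was higher, *SHISA2*, against 5.84%, and *DKK3* and *SFRP2* were lower, with 5 UMIs and 1 UMI in members, against 9.50%, leaving aside *SFRP5* for its level. *SFRP1*, a secreted frizzled-related WNT binder, was at 780.3 against 610.5 CPM at D4 (0.35 [0.30, 0.41]) and 574.7 against 428.8 at D6 (0.43 [0.24, 0.60]). *NOTUM*, an enzyme that inactivates WNT ligands, was at 13.4 against 43.7 CPM at D4 (−1.69 [−2.15, −1.29]) and had −0.64 [−1.56, 0.07] at D6. Of 20 compared ligands, receptors and targets at D4, 3 were higher (*FZD5*, *FZD8*, *LGR5*), against 2.34%, and 5 lower (*RSPO3*, *SP5*, *NKD1*, *FZD1*, *LEF1*), against 2.44%. Of 22 at D6, 4 were higher (*FZD5*, *LGR5*, *WNT11*, *FZD1*), against 5.84%, and *RSPO3* was lower, against 9.50%. *LEF1* had no UMI in members there and 3.14 CPM in comparison cells, under the level of 3 UMIs, and no direction is read for it. *FZD1*, a frizzled receptor, was thus past the fold in opposite directions, at −1.56 [−3.62, −0.32] with 4 UMIs in members at D4 and 1.34 [−2.05, 2.94] with 2 UMIs at D6. *RSPO3*, which amplifies WNT signals, was at 30.5 against 75.3 CPM at D4 (−1.30 [−1.59, −1.03]) and 155.3 against 502.5 at D6 (−1.68 [−2.05, −1.36]). *SP5*, a direct WNT target, was at 72.2 against 165.2 CPM at D4 (−1.19 [−1.38, −1.01]), with −0.79 at D6, whereas *AXIN2*, another target, had 0.10 [−0.47, 0.60] and 0.57 [−0.74, 1.48]. *LGR5*, the receptor of R-spondins, was at 1.25 [1.01, 1.48] at D4 and 1.15 [0.70, 1.54] at D6, but the D6 value was −0.25 in thinned cells.

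Core endoderm identity was close to that of comparison cells. Of 12 compared endoderm transcription factors, the 2 genes *OTX2* and *HHEX* were higher past the fold on both days, against 2.34% of all genes at D4 and 5.84% at D6, and none was lower. *SOX17*, a factor of extra-embryonic and definitive endoderm, was at 91.8 against 94.8 CPM at D4 (−0.04 [−0.22, 0.12]) and 104.3 against 104.5 at D6 (0.01 [−0.45, 0.41]). *GATA4* had −0.06 and −0.21 and *HNF4A* 0.01 and −0.02, and *GATA6* had 0.62 [0.48, 0.75] and 0.36 [0.12, 0.58]. Of 11 compared basement membrane genes, none was past the fold at D4, and *COL4A1* was at 441.2 against 504.2 CPM. At D6, 2 of 11 were lower, *LAMC1* with 5 UMIs and *P4HA2*, against 9.50%.

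Of the products of the hypoblast and yolk sac endoderm, 10 of 19 were lower past the fold in AVE-like than in comparison cells of D6. At D4, 1 of 17 compared products was higher past the fold (*LRP2*), against 2.34% of all genes, and 6 were lower, against 2.44%, with a median of −0.23. *APOA1*, a lipid carrier of the yolk sac, was at 1103.7 against 1638.8 CPM (−0.57 [−0.62, −0.52]), *APOA2* at 535.2 against 419.5 (0.35) and *APOE* at 5868.0 against 5499.7 (0.09). At D6, none of the 19 was higher, 2 were above 0, and the share of lower genes stood against 9.50% of all genes, with a median of −1.49, or −1.09 with genes at 0 set to the bound that 3 UMIs allow. With 1 or more *CER1* UMIs, 9 of 19 were lower at D6, beside 886 of 12766 genes, with a median of −0.72. Without the *NPPB* and *GYP* cuts, 11 of 19 were lower, beside 881 of 12783 genes, with a median of −1.66. *FGB*, a fibrinogen chain, was at 67.8 CPM in comparison cells and had no UMI in the 30 members, which makes it at least 10.2-fold lower. *AFP*, at 23.3 CPM in comparison cells, was at least 3.51-fold lower and *TTR*, at 19.8 CPM, at least 2.97-fold lower. *APOA1* was at 7668.7 against 12425.6 CPM at D6 (−0.70 [−0.75, −0.65]), and *SERPINE2* at 2116.9 against 1619.6 (0.39 [0.29, 0.48]). In comparison cells, 14 of 19 products were higher past the fold at D6 than at D4 and none lower, with a median of 2.39, where 4.49% of all genes were higher. In AVE-like cells, of the 10 that could be compared, 4 were higher, where 2.79% of all genes were, and 3 lower (*APOB*, *TFPI*, *DAB2*), where 4.97% were, with a median of 0.59. The difference between these medians was not tested.

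Genes listed for definitive endoderm, the endoderm of the embryo proper, overlapped with the AVE list in *GSC*, *HHEX*, *LHX1*, *EOMES* and *FOXA2*. Of these, *EOMES* and *FOXA2* were not past the fold on either day. Of 12 compared, 6 were higher past the fold at D4, against 2.34% of all genes, and none lower (median 0.74), and 5 were higher at D6, against 5.84%, and none lower (median 0.64). Against all other cells of the same cuts, 3 were higher at D4, beside 288 of all 13787 genes, and 2 at D6, beside 1035 of 13570. At D6, 2 were higher with 1 or more *CER1* UMIs, beside 416 of 12766 genes, and 2 with the cell with the most UMIs of each gene left out of the members, which lowers ratios by construction, beside 284 of 12744. Those outside the AVE list were *CXCR4*, a chemokine receptor, at 269.7 against 103.7 CPM at D4 (1.38 [1.27, 1.48]) and 0.57 at D6, *RHOBTB3*, at 1092.0 against 408.3 CPM at D4 (1.42 [1.37, 1.47]) and 1.10 at D6, and *MIXL1*, a homeobox gene of the streak. *MIXL1* was at 47.0 against 17.4 CPM at D4 (1.44 [1.17, 1.69]) and 221.9 against 58.1 at D6 (1.94 [1.63, 2.23]), where 31 of its 100 UMIs came from 1 cell, and 1.50 without that cell. *KIT* and *CDH2* were near comparison levels at D4, at 0.21 and 0.25. The letters that mark FOXH1 motifs stand in the promoters of *MIXL1*, *CXCR4* and *OTX2* as well as *CER1*, and in 2.89% of all promoters. They were not found in those of *GSC*, *NODAL*, *FZD5*, *SHISA2* or *HHEX*. Binding was not tested.

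Among markers of other cell types, those of the streak and mesoderm had a higher sum in AVE-like cells on both days. It was 259.6 against 173.3 CPM at D4, led by *EOMES*. At D6 it was 530.3 against 272.6 CPM, with *EOMES* and *MIXL1* each at 221.9 CPM. Both genes are also in the definitive endoderm list, and *EOMES* is in the AVE list, so they are not particular to the streak. Of 10 compared, 2 were higher past the fold at D4 (*MIXL1*, and *KDR* with 14 UMIs), against 2.34% of all genes, and 1 lower (*HAND1*), against 2.44%. At D6, 3 were higher (*MIXL1*, *FGF8*, and *SNAI1* with 5 UMIs), against 5.84%. *HAND1*, with no UMI in members, had a fitted ratio of −1 or less, against 9.50% of all genes. Its bound, at least 1.76-fold lower, is short of the fold. *TBXT*, which defines the streak, had 9 UMIs in all D4 members and 1 in those of D6, and *MESP2* had none. The part of such cells in the results was not tested. None of 9 compared epiblast genes was past the fold at D4, and their sum was 1326.4 against 1092.7 CPM, led by *CD24* at 427.8. Of amnion genes, 3 of 10 could be compared and 2 were lower at D4, against 2.44% of all genes. Only *GATA3* of 8 trophoblast genes could be compared at D4, at 153.0 against 243.0 CPM, and *CGA*, *GCM1*, *CGB3*, *SIGLEC6*, *TP63*, *VGLL1* and *KRT7* had no UMI in D4 members. Of 4 compared germ cell genes 2 were lower at D4, against the same share. Among blood and endothelium genes *PECAM1*, *HBZ*, *TAL1*, *CDH5* and *HBE1* had no UMI in D4 members. Of 7 organizer genes outside the rule, 3 could be compared at D4 and *GSC* alone was higher, against 2.34% of all genes, and *CHRD*, *SHH* and *NOTO* had no UMI at D6.

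All 10 cell cycle genes were below 0 at D4, with a median of −0.32, but only *CCND1*, a cyclin of G1, was past the fold, against 2.44% of all genes that were lower, at 20.7 against 53.3 CPM (−1.36 [−1.72, −1.03]). *TOP2A* had −0.29 and *MKI67* −0.17. At D6, 2 of the 10 were lower, against 9.50% of all genes, namely *CDKN1A* and *CDKN1C*. *CCND1* had 0.23 there, and *CDKN1C*, a cell cycle inhibitor, was at 239.6 against 515.4 CPM (−1.10 [−1.39, −0.83]). Of 9 compared stress and RNA quality genes, *ATF3* alone was past the fold at D4, against 2.34% of all genes that were higher, at 19.0 against 6.37 CPM (1.58 [1.16, 1.98]), and none was at D6. Of 16 epithelium and migration genes at D4, 2 were higher (*CXCR4*, *CDH1*), against 2.34% of all genes, the latter at 1.49 [0.47, 2.35] with 14 UMIs in members. At D6, none of 14 was higher and *CDH1* alone was lower, against 9.50%, at −1.56 [−7.46, 0.34] with 1 UMI. Whether mitochondrial share, stress or cycle genes had a part in the differences above was not tested.

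Across all genes at or above 50 CPM in the higher group, the 12 highest log2 ratios at D4 belonged to *GSC*, *NODAL*, *PALLD*, *PLSCR2*, *CAMKMT*, *FZD5*, *PAX6*, *SHISA2*, *AL117348.1*, *TFF1*, *PLPP1* and *FGF17*. *PALLD*, an actin-bundling protein, was at 89.8 against 11.1 CPM (3.01 [2.79, 3.24]), and at 59.9 against 11.0 at D6 (2.46 [1.81, 3.01]). *PAX6*, best known as an eye and forebrain factor, was at 52.9 against 9.79 CPM at D4 (2.43 [2.16, 2.70]) and 95.4 against 23.2 at D6 (2.06 [1.56, 2.49]). *TFF1*, a secreted trefoil peptide, had 2.22, with 21 of its 237 UMIs in 1 cell. The 12 lowest were *SYTL5*, *DYNLT3*, *FBLN2*, *DAB2*, *ANKRD1*, *PRTG*, *CCND1*, *ID3*, *RSPO3*, *SP5*, *ID4* and *KITLG*. *DAB2*, an endocytic adaptor of the extra-embryonic endoderm, was at 19.9 against 53.9 CPM (−1.43 [−1.81, −1.10]), and *KITLG*, the ligand of KIT, at 28.3 against 62.9 (−1.15 [−1.46, −0.86]). *FBLN2*, a matrix protein, had −1.46 at D4 and −0.99 at D6.

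At D6 the 12 highest were *SPOCK3*, *GSC*, *PALLD*, *FGF8*, *HLA-DPB1*, *NMU*, *PAX6*, *NODAL*, *GRP*, *MIXL1*, *CPE* and *NUAK1*. *GRP*, a gastrin-releasing peptide, was at 335.1 against 86.3 CPM (1.96 [1.71, 2.20]), and *CPE*, a peptide-processing enzyme, at 233.0 against 64.0 (1.87 [1.57, 2.15]). *NMU*, another neuropeptide, was at 122.0 against 29.3 CPM (2.07), with 20 of its 55 UMIs in 1 cell. The lowest were *FGB*, *LGALS2*, *ANKRD1*, *PTGDS*, *KITLG*, *LINC00379*, *ID2*, *LCN15*, *SYTL5*, *SMAD6*, *RSPO3* and *ANXA3*. *ANKRD1*, a target of YAP, was at 13.3 against 143.5 CPM (−3.32 [−4.88, −2.31]) and *KITLG* at 24.4 against 120.4 (−2.24 [−3.31, −1.46]).

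Levels followed the amount of *CER1* at D4. Cells of the same cuts, with the *NPPB* and *GYP* cuts applied, were binned at 0, 1, 2 to 4, 5 to 14 and 15 or more UMIs of *CER1*, which gave 2902, 299, 167, 103 and 99 cells with median depths between 10691 and 11627 UMIs. *GSC* was at 6.88, 13.4, 25.7, 87.2 and 202.4 CPM over these bins. *FZD5* was at 200.7, 389.5, 540.7, 893.0 and 1360.6 CPM, and *NODAL* went from 19.3 to 237.5. *ID3* went the other way, at 1094.3, 887.6, 649.6, 446.1 and 302.8 CPM, and *ID1* from 1678.7 to 462.8. Intervals of neighbouring bins, which cover counting error only, did not overlap for *GSC*, *FZD5*, *ID1* or *ID3*. The bins were cut on a gene of the rule within 1 library, so this is a description. *SOX17* stayed level, at 93.4 CPM in the lowest bin and 85.7 in the highest. *APOA1* was at 1585.7 CPM with no *CER1*, 890.6 at 5 to 14 UMIs and 972.9 at 15 or more. The 2 upper bins of D6 held 14 and 3 cells and are not described.

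**Figure D4:**
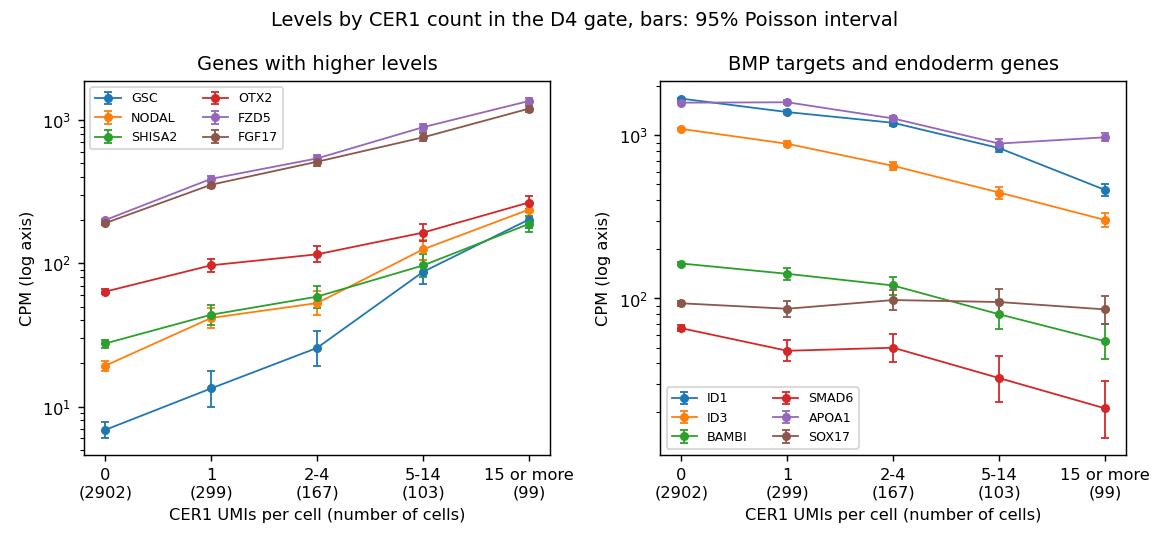
CPM (vertical axis, log scale) of genes in cells of D4 that passed the *FN1*, *SOX2*, *POU5F1*, *NPPB* and *GYP* cuts, by the number of *CER1* UMIs per cell (horizontal axis, with cells per bin), with bars for the 95% Poisson interval. *GSC* goes from 6.88 to 202.4 CPM and *ID3* from 1094.3 to 302.8, while *SOX17* is at 93.4 in the lowest bin and 85.7 in the highest.

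Cells that met the *CER1* and *LEFTY* cuts but had at least 2 UMIs of *NPPB*, a natriuretic peptide gene, numbered 136 at D4 and 37 at D6. At D4, AVE-like cells hardly differed from them in AVE markers, with log2 ratios of 0.17 [−0.07, 0.42] for *GSC*, 0.05 [−0.03, 0.13] for *FZD5* and −0.15 [−0.35, 0.06] for *NODAL*. Past the fold, 55 of 8915 genes (0.617%) were higher in AVE-like cells and 45 (0.505%) were lower, 1.12% in all. *SHISA2* was among the higher ones, at 124.2 against 57.2 CPM (1.11 [0.83, 1.42]). Of 11 compared genes of actomyosin and YAP targets, none was above 0 and 3 were lower past the fold, with a median of −0.72. *TAGLN*, an actin-binding protein, was at 534.4 against 1799.4 CPM (−1.75 [−1.83, −1.67]) and *ANKRD1* at 36.9 against 150.9 (−2.03 [−2.33, −1.73]). Against comparison cells, which were not cut on *NPPB*, 1 of these 11 genes was past the fold at D4, *ANKRD1*, against 2.44% of all genes that were lower, and the median was 0.12.

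Cells that met only 1 of the paired cuts stood between AVE-like and comparison cells in *GSC* and *FZD5*. At D4, 77 cells had *CER1* with fewer than 3 *LEFTY* UMIs and 537 had the *LEFTY* count without *CER1*, and 340 of the latter are also comparison cells because their UMIs were of *LEFTY2*. *GSC* was at 112.2 CPM in AVE-like cells, 10.2 in the *CER1* cells and 13.0 in the *LEFTY* cells, whose intervals of [4.90, 18.8] and [10.4, 16.1] overlap, then 5.68 in comparison and 0.365 in epiblast-like cells. The interval of the *CER1* cells also holds the comparison level. *FZD5* followed the order 991.5, 375.0, 288.7, 182.9 and 40.8 CPM. At D6 the *LEFTY* cells numbered 380, of which 2 are also comparison cells, so that the groups of the 2 days are unlike. They had *FZD5* at 1004.1 CPM, against 1187.1 in AVE-like cells, and *NODAL* at 115.7, against 150.9. *GSC* was at 86.3 CPM in them and 162.0 in AVE-like cells.

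**Figure D5:**
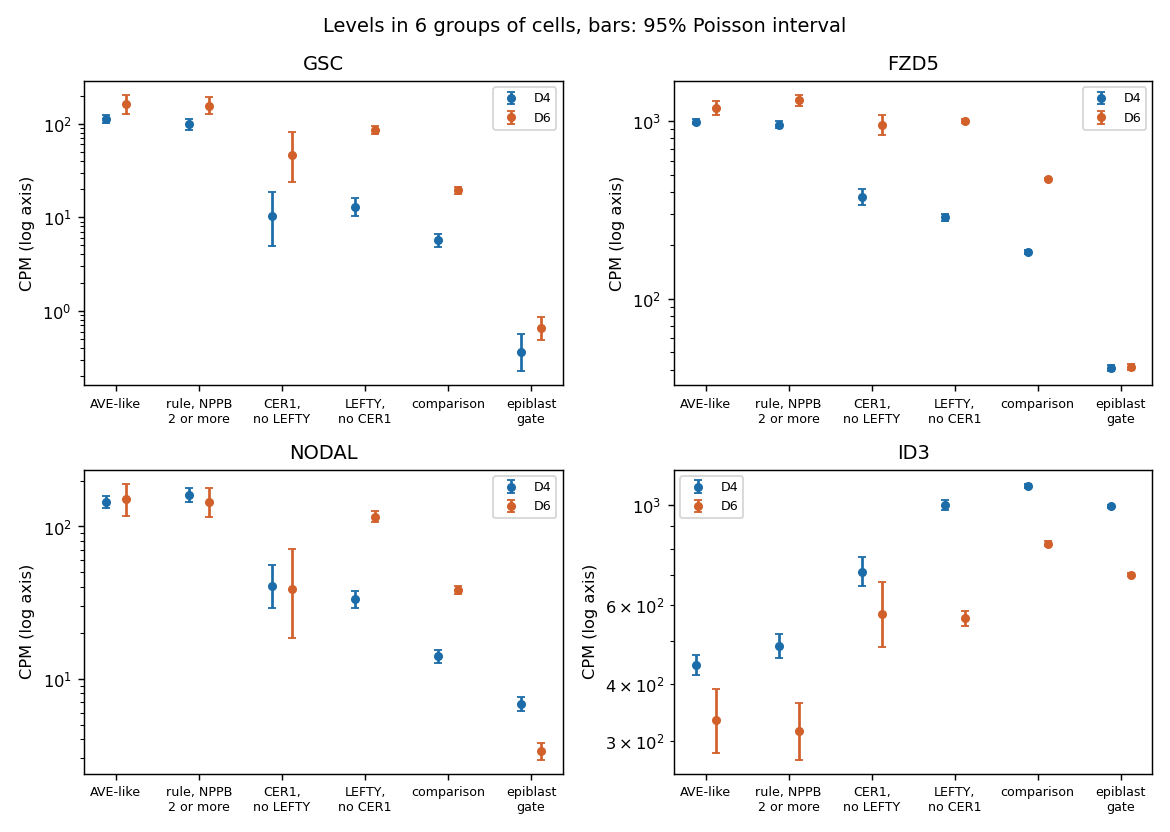
CPM (vertical axis, log scale) of *GSC*, *FZD5*, *NODAL* and *ID3* in 6 groups of cells (horizontal axis) at D4 and D6, with bars for the 95% Poisson interval. AVE-like cells and those with 2 or more UMIs of *NPPB* have the highest *GSC* (112.2 and 99.3 CPM at D4) and the lowest *ID3* (441.8 and 487.1 CPM at D4).

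Between the AVE-like cells of the 2 libraries, 219 of 7844 compared genes (2.79%) were higher at D6 and 390 (4.97%) were lower, 7.76% in all. Between comparison cells 6.73% of genes were past the fold. *GSC* (0.54 [0.15, 0.89]), *NODAL* (0.07 [−0.33, 0.43]) and *FGF17* (0.00 [−0.16, 0.16]) differed by less than the fold, and *SHISA2* was lower at D6 (−1.76 [−2.63, −1.09]). The highest ratios were those of *HP*, *GDF3*, *TPPP3*, *GPX2*, *TMEM100*, *GRP*, *FOXQ1* and *PDGFRA*. *HP*, haptoglobin, was at 175.3 CPM at D6 and 2.24 at D4 (6.21 [5.24, 7.55]), with 30 of its 79 UMIs in 1 cell. *GDF3*, a NODAL-related ligand, was at 328.4 and 13.1 CPM (4.63 [4.16, 5.15]), *PDGFRA*, a receptor of the extra-embryonic endoderm, at 68.8 and 9.23 (2.90 [2.14, 3.65]), and *FOXQ1* at 348.4 and 36.7 (3.25 [2.90, 3.59]). Comparison cells had like ratios between the libraries, at 5.81 for *HP*, 4.28 for *GDF3*, 3.29 for *PDGFRA*, 3.58 for *FOXQ1* and 2.92 for *APOA1*, the latter at 2.80 in AVE-like cells.

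The lowest ratios were those of *SHISAL2B*, *GPC3*, *AL117348.1*, *BMP7*, *SEMA5A*, *CAMKMT*, *KYNU* and *EFNA5*. *GPC3*, a glypican, had 229.1 CPM at D4 and 35.5 CPM at D6 (−2.65 [−3.50, −1.98]), and *BMP7* at 66.9 and 11.1 (−2.46 [−4.23, −1.35]). *BMP2* was at 244.5 and 77.7 CPM (−1.64 [−2.19, −1.17]) in AVE-like cells, and had −0.14 [−0.20, −0.09] in comparison cells. *GSC* and *FZD5* showed the reverse, with larger ratios in comparison cells. None of these differences between the 2 kinds of cells was tested.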

How the data were processed

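The authors deposited, for each of the 2 single-cell libraries, raw counts of UMIs for 36601 genes, made with Cell Ranger (6.0.1 per the file header) on hg38, which the submitters' processing notes list beside Seurat 4.0.1 and R 4.0.3. The 7 bisulfite libraries were not analysed here. Cells with 3430 to 27500 UMIs and at most 10% mitochondrial UMIs were kept (9151 at D4, 83.6%, and 10097 at D6, 87.9%). Members, comparison cells and the 25 gene lists were chosen with earlier results of these data known. Scrublet in scanpy 1.11.5 marked doublets in 3.45% and 4.28% of kept cells, which were left out in 1 alternative only. UMIs were summed over the cells of a group and scaled to CPM. Intervals were exact Poisson for CPM, Clopper-Pearson for shares and conditional binomial for ratios, with numpy 2.4.6, scipy 1.17.1 and pandas 2.3.3 in Python 3.11.15. Log2 ratios had 0.5 counts added, and a floor of 3 counts was used for genes at 0. Intervals and floors cover counting error only. Genes were named when they belonged to a list or had the 12 highest or 12 lowest log2 ratios at 50 CPM or more in the higher group (8 each between days), and 1 gene of the lists is not reported here. Functions that compute ratios were tested on simulated data. Alternatives varied the cuts, depth, comparison cells, scaling and minimum counts. Members held 3574319 UMIs at D4 and 450662 at D6.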

Additional observations from a re-analysis of the deposited data

Results flagged for a closer look

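Among the named genes, the log2 ratios of 6 over comparison cells lay on opposite sides of 0 at D4 and D6 with at least 1 of them past the fold and both intervals of counting error clear of 0. Further genes had opposite signs with an interval that held 0 on 1 of the days, among them *FZD1*, *CDH1* and *CCND1*. The difference between the days was not tested, since each day was 1 library, and the D6 values rest on 30 cells. *CFC1*, a NODAL co-receptor with a close copy in the genome that could share its reads, was at −0.56 at D4 and 1.50 at D6, with 42 and 17 UMIs. *BMP2* was at 0.16 and −1.33, and *FST* at 0.15 and −1.18. The remaining 3 were named for their low level at D6 within AVE-like cells, so their sign at D6 is not independent of that choice. *SHISAL2B* was at 0.28 and −1.22 with 8 UMIs at D6, *GPC3* at 0.64 and −1.02 with 16, and *SEMA5A* at 0.70 and −1.35 with 5.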

How the results depend on the processing

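No paired analysis was possible because each day was 1 library, and no replicate could be left out. Of 214 values of shares, counts, *GSC* and *FZD5* under 20 alternatives, 151 stayed within their counting error or within 1.5 times the count, 63 moved and none changed sign. The share of AVE-like cells at D4 and D6 was 4.85% and 0.574% with 1 or more *CER1* UMIs, 2.00% and 0.119% with 5 or more, 4.70% and 0.683% without the *NPPB* and *GYP* cuts, and 0.994% and 0.109% with 10 or more *FN1* UMIs. At D4 it was 3.68% with 1 or more *LEFTY* UMIs and 2.56% with 8 or more.

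Counts past the fold moved most with the minimum number of UMIs. Higher and lower at D4, they were 1047 and 986 with 10 or more UMIs over both groups, 121 and 115 with 200 or more, 193 and 188 with 10 or more expected in each group, and 200 and 195 with 1 or more *CER1* UMIs. Lower genes numbered 512 with 5 or more *CER1* UMIs and 564 with the top cell of each gene left out. At D6, higher genes numbered 2534 with 10 or more UMIs, 416 with 1 or more *CER1* UMIs, 1585 with 5 or more, 434 without the *NPPB* and *GYP* cuts and 1438 in thinned cells. Higher and lower, they were 204 and 548 with 200 or more UMIs, 53 and 175 with 10 or more expected, and 284 and 2701 with the top cell left out. Between days they were 134 and 227 with 10 or more *FN1* UMIs, 108 and 204 thinned, 870 and 1189 with 10 or more UMIs, 41 and 52 with 200 or more, 112 and 184 with 10 or more expected, and 127 and 817 with the top cell left out.

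The log2 ratio of *GSC* at D4 was 3.80 and 4.78 with 1 and 5 or more *CER1* UMIs, 3.76 in thinned cells and 3.10 against all other cells of the cuts. *FZD5* at D4 was 2.18 and 2.70 with those *CER1* cuts, 2.33 and 2.58 with 1 and 8 or more *LEFTY* UMIs, 2.59 with 10 or more *FN1* UMIs, 2.32 thinned and 1.88 against all others. At D6, *GSC* was 2.64 with 1 or more *CER1* UMIs, 2.65 thinned, 2.65 with comparison cells weighted to the members' depth and 2.19 against all others, and *FZD5* was 1.52 with 10 or more *FN1* UMIs, 1.15 thinned, 1.46 in cells of up to 20000 UMIs, 1.18 weighted and 0.95 against all others.

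Among named genes, signs turned for *MSX1* at D4 (0.09 without the *NPPB* and *GYP* cuts), *LGR5* and *FGFR3* at D6 (−0.25 and 0.12 thinned), and between days for *FZD2* (0.00) and *ANKRD1* (0.25) without those cuts, *LGR5* (−0.40 thinned) and *TFPI* (0.04 with 5 or more *CER1* UMIs). The cause was not tested. The alternative with the top cell left out, the expected-count minimum, comparison cells cut like members and scaling without mitochondrial, ribosomal and rule genes were chosen after seeing the data.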
